A study of Mus musculus with 12 samples.

Results

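The genes described here are 35 genes of autophagy and the lysosome, taken by their symbols from the 17922 genes of the deposited expression table. They comprise 3 transcription factors, 4 genes of autophagosome initiation and nucleation, 5 genes of the ATG8 conjugation system, 5 genes of the ATG8 family, 4 autophagy receptors and cofactors, 4 lysosomal membrane proteins, 6 cathepsins, and 4 glycosidases and activators. All 35 were found in the table and passed the low-count filter in every comparison.

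Autophagy wraps cell contents in a double membrane, the autophagosome, which fuses with the lysosome, where acid hydrolases break the contents down. The membrane grows as small ubiquitin-like proteins of the ATG8 family are joined to its lipids, and receptors such as p62 tie cargo to those proteins. In growth plate cartilage, which has no blood supply, chondrocytes are known to use autophagy for collagen secretion and survival. TFEB, TFE3 and MITF are the related factors that switch on many lysosomal and autophagy genes when nutrient signalling by mTORC1 at the lysosome falls.

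RNA was measured by sequencing in 12 samples, 4 groups of 3, of primary chondrocytes (cartilage cells) from mouse ribs. The LDH knockout, from mice at postnatal day 5 (P5), carried Col2-Cre, both Ldha alleles floxed and 1 intact Ldhb allele. The Acly knockout, from embryos at E18.5, carried Col2-Cre and both Acly alleles floxed. Each was compared with littermate controls of its own age, and all mice were of a mixed strain in which C57BL/6 predominates. Ldha and Ldhb encode the subunits of lactate dehydrogenase, which makes lactate at the end of glycolysis, and Acly encodes ATP citrate lyase, which makes cytosolic acetyl-CoA. The Col2 promoter drives Cre in cartilage cells, and which cells of a culture kept the floxed genes was not measured. The genotype of the controls is given only as control. Cells were freed with collagenase and kept in serum-containing medium for a day before lysis, so levels are those of cultured cells. Nothing in the labels says that samples of a group came from separate animals, so p-values measure the spread between samples, which may be technical. The Y-linked levels given next differ between samples within 3 of the 4 groups, so these 3 groups are not repeats of 1 RNA, while in the LDH knockout they do not tell the samples apart.

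Depth was even, with 26362407 to 28154143 expected counts per sample, and a floor of 3 counts, below which no level is read, is worth 0.107 to 0.114 CPM (normalised counts scaled to a common library total). Ldha was at 10.3% of its control level in the LDH knockout and Acly at 37.6% in the Acly knockout, while Ldhb was at 129% in the LDH knockout with an adjusted p of 0.115 in edgeR. Of 6 chondrocyte markers, Matn1 averaged 0.184 CPM in the LDH knockout and 0.0852 CPM in its controls, near or below that floor, while the summed list reached 17632 to 26711 CPM and 9762 to 11232 CPM in those groups. The same list stood at 13275 to 16209 CPM in the Acly knockout and at 7886 to 8615 CPM in its controls. Col2a1, the cartilage collagen gene, makes up most of each sum: 5 of 6 markers were higher without overlap in the LDH knockout, but in the Acly knockout Col2a1 (1.05) and Acan (0.56) were, and the other 4 overlapped. The samples also differed in the summed level of 4 Y-linked genes, which was 0.0367 CPM or less in all 3 LDH knockout samples, 93.0, 102 and 0.59 CPM in the LDH controls, and between 0.0755 and 121 CPM in both Acly groups. Acly knockout replicate 2 stood apart from the other 2, with a summed fibroblast marker level of 1108 CPM against a highest value of 2863 CPM in its group. In bulk RNA, fewer cells of a type and less RNA per cell cannot be told apart.

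The 35 genes covered a wide range of abundance. Per transcript length, on the deposited TPM scale, which divides by transcript length and by the sample's total, Sqstm1, which encodes the receptor p62, was the most abundant in LDH controls at 1369 ± 76.5 TPM (SD, n = 3). Ctsd, the aspartic protease cathepsin D, followed at 1045 ± 11.5 TPM, Gabarap of the ATG8 family at 732 ± 9.30 TPM and Lamp1, a main glycoprotein of the lysosomal membrane, at 711 ± 12.6 TPM. At the other end Gla, which encodes alpha-galactosidase A, stood at 9.85 ± 0.568 TPM, Tfeb at 8.28 ± 2.15 TPM and Mitf at 2.18 ± 1.07 TPM. Of the 3 related transcription factors, Tfe3 was the most abundant in every group, at 159 ± 6.63 TPM in LDH controls and 123 ± 2.42 TPM in Acly controls. Together the 35 genes took 0.715% to 0.747% of all TPM in samples of the LDH set. In those of the Acly set they took 0.81% to 0.853%.

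**Figure D1:**
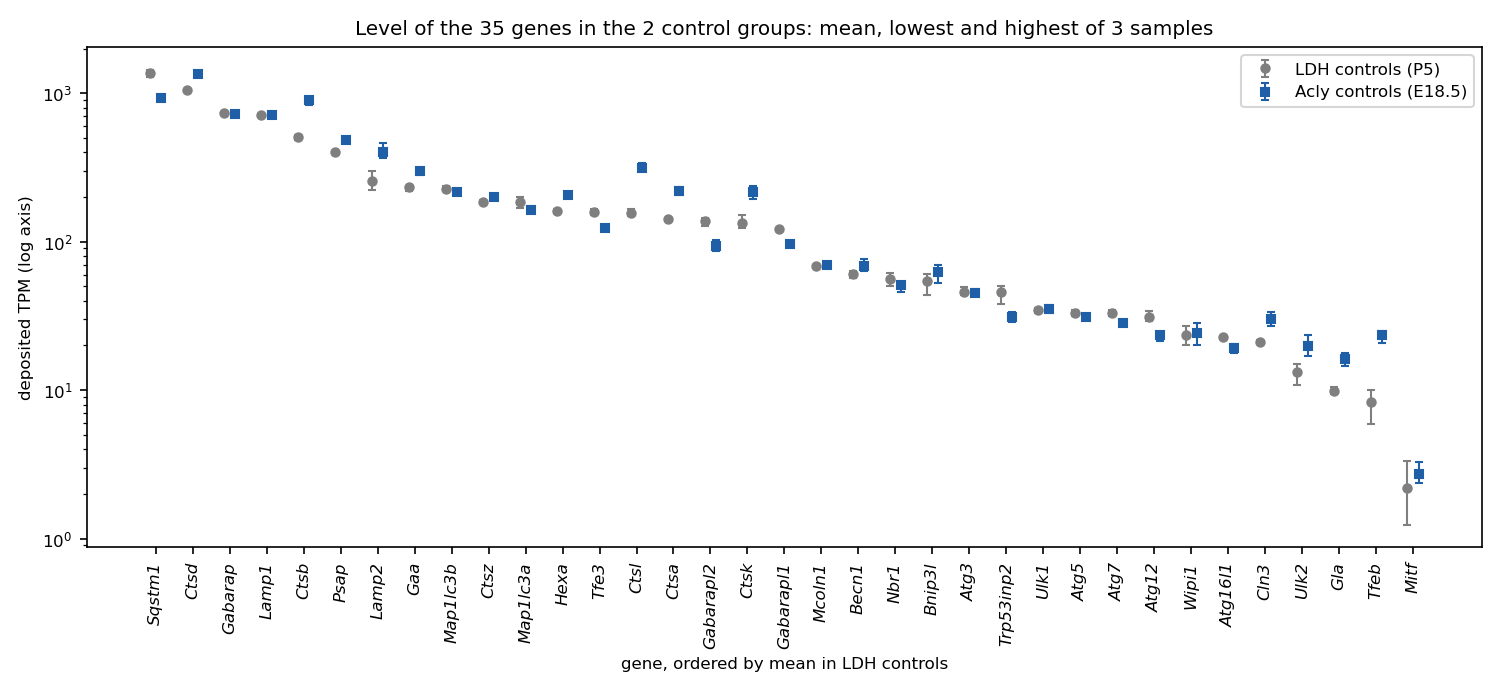
Deposited TPM of each of the 35 genes (vertical log axis) in the LDH controls at P5 and the Acly controls at E18.5, ordered by the mean in LDH controls; symbols are means and bars run from the lowest to the highest of 3 samples. Sqstm1 at 1369 TPM and Mitf at 2.18 TPM mark the ends of the range in LDH controls.

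Many lysosomal genes carry an E-box that TFEB, TFE3 and MITF can bind, so the promoter windows of the members were searched for it. As the members were chosen as genes of this pathway, a high share among them is not an independent result. RefSeq (GRCm38.p6) gave a window of 250 bases before to 50 bases after the start for 29 of the 35 genes. Becn1, Atg12, Atg16l1, Map1lc3a, Bnip3l and Ctsb were not matched. The motifs searched, CACGTG and the longer TCACGTGA that contains it, read the same on both strands. CACGTG occurred in 11 of 29 members (37.9%) and in 8.09% of 27025 genes with a window. TCACGTGA occurred in 6 members (20.7%) against 1.12% of genes. The windows of Ctsa and Ctsd hold 2 copies of CACGTG each, of which only 1 is shown. The stretches below are from the 6 members with TCACGTGA, and from Lamp1, which holds 4 copies of the shorter motif. Each is written 5′ to 3′ along the gene's own strand, and capitals mark CACGTG.
Atg3, chr16:45158720-45158778, plus strand: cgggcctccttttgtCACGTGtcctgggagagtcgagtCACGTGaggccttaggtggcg
Lamp1, chr8:13159085-13159160, plus strand: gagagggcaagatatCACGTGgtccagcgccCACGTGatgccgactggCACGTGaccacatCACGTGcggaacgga
Cln3, chr7:126583337-126583400, minus strand: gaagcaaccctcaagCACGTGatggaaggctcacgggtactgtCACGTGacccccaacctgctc
Mcoln1, chr8:3500433-3500494, plus strand: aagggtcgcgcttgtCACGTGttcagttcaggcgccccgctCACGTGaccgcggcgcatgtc
Ctsa, chr2:164833749-164833772, plus strand: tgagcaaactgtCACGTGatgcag
Ctsd, chr7:142387908-142387937, minus strand: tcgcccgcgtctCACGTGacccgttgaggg
Gla, chrX:134601179-134601247, minus strand: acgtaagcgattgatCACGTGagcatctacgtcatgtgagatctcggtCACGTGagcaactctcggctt
The copies in Lamp1 lie between 61 and 15 bases before the start, those in Mcoln1 at 71 and 45 bases, and those in Gla at 227 and 194 bases. Atg5, Atg7, Ctsl and Gaa held 1 copy of CACGTG each. The windows of Trp53inp2 and Gabarapl1, the members that passed the test in a knockout, held none of these letters. A match describes the sequence only and was not measured as binding.

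In the LDH knockout 2 of the 35 genes fell and none rose, by edgeR with adjusted p under 0.05, where 2.49% of the 13321 genes tested passed (1.43% higher and 1.07% lower). The 2 were Trp53inp2, which encodes a cofactor that binds ATG8 proteins and helps autophagosomes form, at a log2 fold change of -0.58, and Gabarapl1, an ATG8 family gene, at -0.34. At an unadjusted p under 0.05 there were 8 of 35 members (22.9%), beside 19.6% of all genes. The groups of 3 samples did not overlap for 11 members, beside 24.3% of all genes: 4 were higher in the knockout and 7 lower, beside 11.9% and 12.5%. The median log2 fold change was -0.01 over the 35 genes and 0.01 over all genes tested, with members running from -0.58 to 0.58. Some markers of other cells moved with the knockout. The fat cell markers summed to 11.3 to 48 CPM against 1.31 to 2.11 CPM in the controls. Of these, 4 of 4 tested were called higher by edgeR. The osteoblast markers summed to 15.4 to 23.2 CPM against 38.9 to 53.3 CPM. Of these 5, Bglap and Sp7 were apart and lower, and only Sp7 was called (-1.22, by edgeR). The other 3 overlapped, with Alpl at 0.06, Ibsp at -0.26 and Dmp1 below the floor in both groups. The part of these cells in the members' values was not tested.

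**Figure D2:**
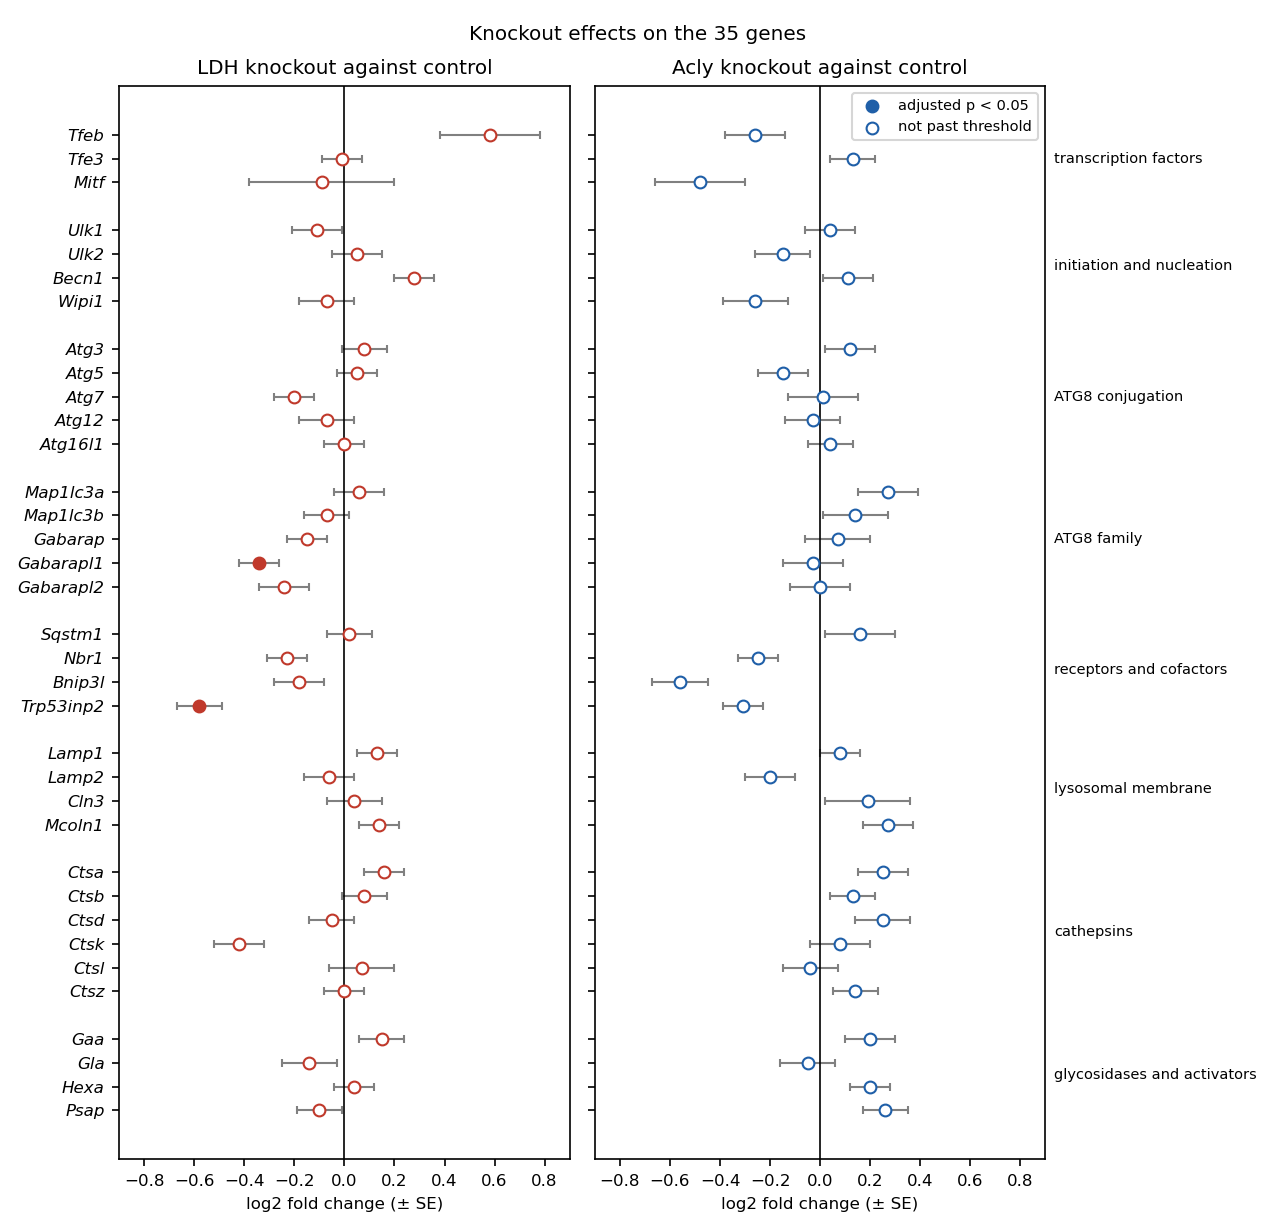
Log2 fold change of each of the 35 genes (horizontal axis, ± SE from edgeR, 3 knockout against 3 control samples), grouped by role, in the LDH knockout (left) and the Acly knockout (right). Filled points passed adjusted p under 0.05; only Trp53inp2 and Gabarapl1 in the LDH knockout are filled.

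Among the transcription factors, Tfeb was at 13.7, 15.7 and 13.1 CPM in the LDH knockout samples and at 10.1, 6.46 and 11.8 CPM in the controls. All 3 knockout samples lay above all 3 controls, at a log2 fold change of 0.58 (SE 0.20), but the adjusted p was 0.151 in edgeR. With the Y-linked signal as a covariate the same value was 0.06, and against the 1 control with low Y-linked signal it was 0.26. Tfe3 (-0.01) and Mitf (-0.09) overlapped between groups.

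Of the genes that start an autophagosome, Becn1 encodes a subunit of the lipid kinase complex that marks the membrane for growth. Its levels were 79.5, 78.4 and 70.0 CPM in the knockout and 62.3, 63.4 and 62.3 CPM in the controls. The groups did not overlap, with a log2 fold change of 0.28 (SE 0.08) and an adjusted p of 0.0905 in edgeR. Of 17 alternatives 1 called Becn1, the fit without LDH knockout replicate 3 (log2 fold change 0.33, adjusted p 0.0326 in edgeR). With the Y-linked signal as a covariate the value was 0.28, with an adjusted p of 0.404 in edgeR. Against the 1 low-Y control it was 0.29. Becn1 overlaps the gene Cntd1, and as the use of strand in counting is not given, its counts are uncertain. The kinase genes Ulk1 (-0.11) and Ulk2 (0.05) and the lipid-binding Wipi1 (-0.07) overlapped between groups. None of the 5 conjugation genes passed. Atg7, the activating enzyme of the system, had the largest difference at -0.20, with all 3 knockout samples (44.4 to 50.7 CPM) under the controls (51.3 to 58.0 CPM) and an adjusted p of 0.238 in edgeR. Atg3 (0.08), Atg5 (0.05), Atg12 (-0.07) and Atg16l1 (0.00), which carry the ATG8 proteins to the membrane, overlapped.

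In the ATG8 family, Gabarapl1 was at 92.2, 82.3 and 84.5 CPM in the knockout and at 106, 108 and 115 CPM in the controls. Every knockout sample was below every control, at a log2 fold change of -0.34 (SE 0.08) with an adjusted p of 0.0494 in edgeR. That call was lost on leaving out any 1 of the 6 samples (adjusted p 0.0544 to 0.185 in edgeR), and against the 1 low-Y control the value was -0.41 with an adjusted p of 0.25. Gabarapl2 (-0.24, adjusted p 0.239 in edgeR) and Gabarap (-0.15, adjusted p 0.317 in edgeR) also had no overlap between groups. The LC3 genes Map1lc3a (0.06) and Map1lc3b (-0.07) did overlap.

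Of the receptors and cofactors, Trp53inp2 was at 64.8, 65.0 and 60.7 CPM in the knockout and at 101, 100 and 83.2 CPM in the controls. All 3 knockout samples were below all controls, and the control nearest to them was replicate 3, the 1 with low Y-linked signal. The log2 fold change was -0.58 (SE 0.09) with an adjusted p of 0.0141 in edgeR. Against control replicate 3 alone it was -0.39 with an adjusted p of 0.239, and with the Y-linked signal as a covariate -0.29 with an adjusted p of 0.342, both in edgeR. In the LDH set the knockout and the Y-linked signal move together, and their parts cannot be told apart at this size. Leaving out control replicate 1, knockout replicate 1 or knockout replicate 2 gave adjusted p values of 0.0545, 0.0628 and 0.0501 in edgeR. Nbr1, a receptor for ubiquitin-tagged cargo, was at 110, 112 and 121 CPM against 133, 143 and 127 CPM in the controls. Its groups did not overlap, at -0.23 (SE 0.08) with an adjusted p of 0.143 in edgeR. With the Y-linked signal as a covariate Nbr1 was at -0.10, and against the 1 low-Y control at -0.15. Sqstm1 (0.02) and Bnip3l, which encodes a receptor for mitochondria (-0.18), overlapped between groups.

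The lysosomal members showed no gene past the test in the LDH knockout. Their 14 genes had a median log2 fold change of 0.04, and 8 of them were above 0. Ctsk, the collagen-cutting cathepsin K best known from osteoclasts, was at 78.1, 88.5 and 73.0 CPM in the knockout and 97.7, 118 and 104 CPM in the controls. The groups did not overlap, at a log2 fold change of -0.42 (SE 0.10) with an adjusted p of 0.0573 in edgeR. Ctsk passed with DESeq2 (adjusted p 0.00519), but of 17 alternatives only 3 called it and 14 did not. With the Y-linked signal as a covariate its value was -0.38 with an adjusted p of 0.4 in edgeR. Against the 1 low-Y control its value was -0.39. The 8 osteoclast markers summed to 12.7 to 22.0 CPM in the knockout and 8.37 to 13.9 CPM in the controls. None of the 4 that were tested passed by edgeR. Of these Acp5 was apart and higher (285% of the control level, adjusted p 0.0661 in edgeR). Mmp9 (log2 fold change 0.54), Oscar (0.04) and Itgb3 (-0.22) overlapped between groups. Ocstamp and Calcr were below the floor in both groups and Dcstamp in the controls. Lamp1 (0.13) and Ctsa, the protective protein of lysosomal neuraminidase (0.16), were higher without overlap, at adjusted p values of 0.402 and 0.315 in edgeR. The other lysosomal members, among them Lamp2 (-0.06), the Batten disease gene Cln3 (0.04) and the calcium channel gene Mcoln1 (0.14), overlapped between groups, within -0.14 (Gla) and 0.15 (Gaa, which encodes the enzyme that frees glucose from lysosomal glycogen).

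**Figure D3:**
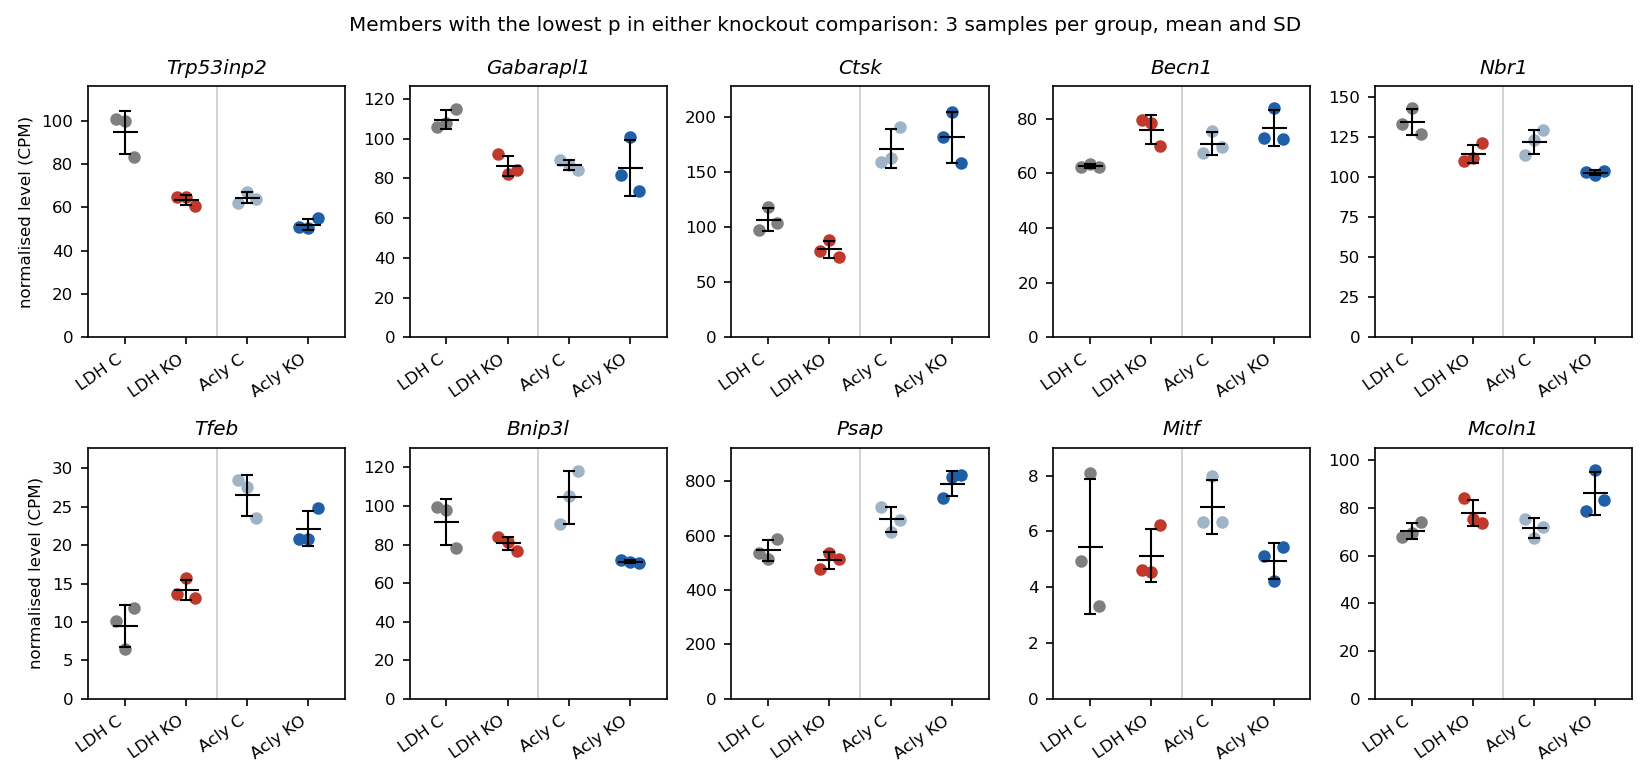
Normalised level in CPM (vertical axis from 0) of the 10 members with the lowest p in either knockout comparison, with 1 point per sample, the mean and the SD, in LDH controls, LDH knockout, Acly controls and Acly knockout. The 2 sets were scaled separately; Trp53inp2 and Nbr1 lie lower in the knockout samples than in the controls of both sets.

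In the Acly knockout no member passed the test, where 0.136% of the 13973 genes tested did by edgeR (0.0573% higher and 0.0787% lower). At an unadjusted p under 0.05 there were 8 of 35 members (22.9%), beside 15.8% of all genes, and DESeq2 called 1 member, Bnip3l. The groups did not overlap for 13 members, beside 22% of all genes: 6 were higher and 7 lower, beside 10.7% and 11.3%. The 35 genes had a median log2 fold change of 0.07 (all genes -0.00). Among the 14 lysosomal members 11 were above 0, with a median of 0.17, while the 18 members of the autophagy machinery had a median of 0.00 and 9 above 0. Without Acly knockout replicate 2 these medians were 0.13 and -0.10, with 12 and 5 members above 0.

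Bnip3l, the mitochondrial receptor also called NIX, had the lowest p of the members. It was at 71.9, 70.7 and 70.4 CPM in the Acly knockout and at 90.6, 105 and 118 CPM in the controls. The knockout samples were nearly equal and all lay below the controls, at a log2 fold change of -0.56 (SE 0.11) with an adjusted p of 0.114 in edgeR. DESeq2 gave an adjusted p of 0.00144, and edgeR 0.0492 without knockout replicate 2. These were the only 2 of 16 alternatives that called Bnip3l, and 14 did not. They called 249 and 132 of all genes in place of 19.

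Trp53inp2 was at 50.8, 50.3 and 55.1 CPM in the Acly knockout and 62.1, 67.3 and 64.0 CPM in the controls. The groups were apart, at -0.31 (SE 0.08) with an adjusted p of 0.223 in edgeR. Nbr1 was at 103, 101 and 104 CPM against 114, 123 and 129 CPM, also apart, at -0.25 (SE 0.08) with an adjusted p of 0.263 in edgeR. Mitf was low throughout, at 5.13, 4.22 and 5.45 CPM in the knockout and 6.33, 7.99 and 6.33 CPM in the controls. It too did not overlap, at -0.48 (SE 0.18) with an adjusted p of 0.275 in edgeR. Wipi1 (-0.26) and Atg5 (-0.15) were the other members of the machinery that were lower without overlap, and Map1lc3a (0.27) the 1 that was higher, at adjusted p values of 0.327 to 0.434 in edgeR. Tfeb was at -0.26 and overlapped between groups.

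Psap, which encodes the precursor of the saposins that help enzymes break down sphingolipids, was at 738, 814 and 822 CPM in the Acly knockout and 706, 615 and 658 CPM in the controls. Its groups did not overlap, at 0.26 (SE 0.09) with an adjusted p of 0.268 in edgeR. Mcoln1, the lysosomal calcium channel TRPML1, was at 78.8, 96.0 and 83.3 CPM against 75.3, 67.3 and 72.0 CPM. It was apart as well, at 0.27 (SE 0.10) with an adjusted p of 0.278 in edgeR. Hexa, a subunit of beta-hexosaminidase (0.20), Ctsd (0.25) and Lamp1 (0.08) were also higher without overlap in CPM, though Lamp1 overlapped in TPM. Ctsa (0.25) overlapped, as did the other cathepsins, from -0.04 (Ctsl) to 0.14 (Ctsz). The markers of macrophages and other white blood cells, which are rich in lysosomes, summed to 198 to 223 CPM in the knockout and 173 to 200 CPM in the controls. Of these 11, 3 were apart and higher and 8 overlapped. Cd68, at 73.3 against 55.7 CPM, is itself on the list of further lysosomal membrane genes counted here. Adgre1 (-0.15), Fcgr3 (-0.21), Cd14 (-0.42), Mrc1 (-0.35) and C1qa (-0.11) were below 0. Of the fibroblast markers 4 of 6 were apart and lower, among them Dcn (-0.88) and Col3a1 (-0.81), as were 3 of 6 skeletal muscle markers, none of them past the test. The part of these cells in the members' levels was not tested. Lamp2, at -0.20, was the lysosomal member that lay lower without overlap.

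In Acly knockout replicate 2 several members of the machinery were the highest of the 6 samples. Sqstm1 was at 1307 CPM there and at 956 and 954 CPM in the other 2, against 885 to 1008 CPM in the controls. Gabarap was at 514 CPM against 359 and 400 CPM in the other 2 and 401 to 407 CPM in the controls. Both overlapped between groups, at 0.16 (SE 0.14) and 0.07 (SE 0.13).

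The 2 knockouts share no samples, so their effects can be set side by side. The sign was the same in both for 22 of 35 members (62.9%), beside 57.4% of the 13140 genes tested in both. Trp53inp2 and Nbr1 were lower in both and Lamp1 was higher in both (0.13 in LDH and 0.08 in Acly), without overlap in CPM in either. The share of all genes that do the same was not counted. On the deposited TPM scale 2 of these overlapped in 1 set. Nbr1 did so in the LDH set (44.4 to 50.4 TPM against 50 to 61.4 in controls). Lamp1 did so in the Acly set (673 to 736 TPM against 704 to 735 in controls). With the Y-linked signal as a covariate the LDH values of Trp53inp2 and Nbr1 were -0.29 and -0.10. No member passed the edgeR test of whether the LDH effect differed from the Acly effect, which 0.161% of 14251 genes passed (0.0912% higher and 0.0702% lower). Of the 35, 6 (17.1%) had an unadjusted p under 0.05 beside 13% of all genes, and DESeq2 also called 0. The largest difference was in Tfeb, whose log2 effect was higher in the LDH knockout by 0.86 (SE 0.25, adjusted p 0.207 in edgeR). Ctsk (-0.48), Psap (-0.35), Gabarapl1 (-0.30) and Ctsd (-0.28) were lower in the LDH knockout relative to the Acly knockout, and Bnip3l (0.39) was higher, with adjusted p values of 0.258 to 0.381 in edgeR. Age and the deleted gene coincide in this test.

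Many more members passed between the control groups than in either knockout, as did many more of all genes. By edgeR 20 of 35 passed, 9 higher and 11 lower at E18.5 than at P5, beside 55% of the 14251 genes tested (29.4% higher and 25.7% lower). At an unadjusted p under 0.05 there were 23 (65.7%), beside 60.2% of all genes. The groups did not overlap for 28 members, 12 higher and 16 lower, beside 65.4% of all genes (34.7% and 30.7%). Autophagy machinery was mostly lower at E18.5, with 10 of 18 genes lower and 1 higher and a median of -0.27, and lysosomal proteins were mostly higher, with 7 of 14 higher and none lower and a median of 0.28 (all genes 0.02). Total-count scaling moved the median of all genes to 0.19, and the calls to 14 higher and 8 lower, beside 53.2% of all genes (38.5% higher and 14.7% lower). The medians were then -0.09 for the machinery, with 2 higher and 7 lower, and 0.45 for the lysosomal proteins, with 11 higher and 0 lower. Under either scaling the machinery lay below the median of all genes and the lysosomal proteins above it. Age, mouse line and any library batch cannot be told apart here.

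Tfeb had the largest difference between control groups, at 27.2, 26 and 22.3 CPM in Acly controls and 10.8, 6.85 and 12.4 CPM in LDH controls, all 12 samples being scaled together. Every E18.5 sample was above every P5 sample, by 1.33 on the log2 scale (SE 0.18, adjusted p 4.3e-05 in edgeR). Tfe3 moved the other way, from 256, 270 and 285 CPM at P5 to 193, 185 and 186 CPM at E18.5, a log2 difference of -0.52. Mitf (0.18) overlapped.

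All 5 conjugation genes and all 5 ATG8 family genes had lower CPM at E18.5 without overlap. Of these, 4 and 3 passed the threshold. With total-count scaling Atg3 was at 0.03 and Gabarap at 0.00. On the deposited TPM scale Atg3, Atg5, Map1lc3a, Map1lc3b and Gabarap overlapped between the control groups. Gabarapl2, at 40.8, 44.6 and 41.3 CPM against 72.6, 69.7 and 68.5 CPM, had the largest difference (-0.73, SE 0.11). Sqstm1 was at 961, 838 and 930 CPM against 1396, 1519 and 1581 CPM (-0.72, SE 0.11), and Trp53inp2 at 59.2, 63.8 and 60.7 CPM against 108, 106 and 87.5 CPM (-0.72, SE 0.09). Ulk2 was the member of the machinery that was higher (0.40). Atg5, Map1lc3a and Nbr1 lost their calls under total-count scaling, with values of -0.05, -0.16 and -0.12. They also lost them with limma on log2(FPKM + 1), as did Atg7 (-0.20, adjusted p 0.0757 in limma, against -0.45 in edgeR). The call of Atg5 was also lost without Acly control replicate 1 or 2 or LDH control replicate 1 (adjusted p 0.0615 to 0.0878 in edgeR), and that of Map1lc3a without Acly control replicate 2 or 3 or LDH control replicate 3 (0.0721 to 0.105).

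**Figure D4:**
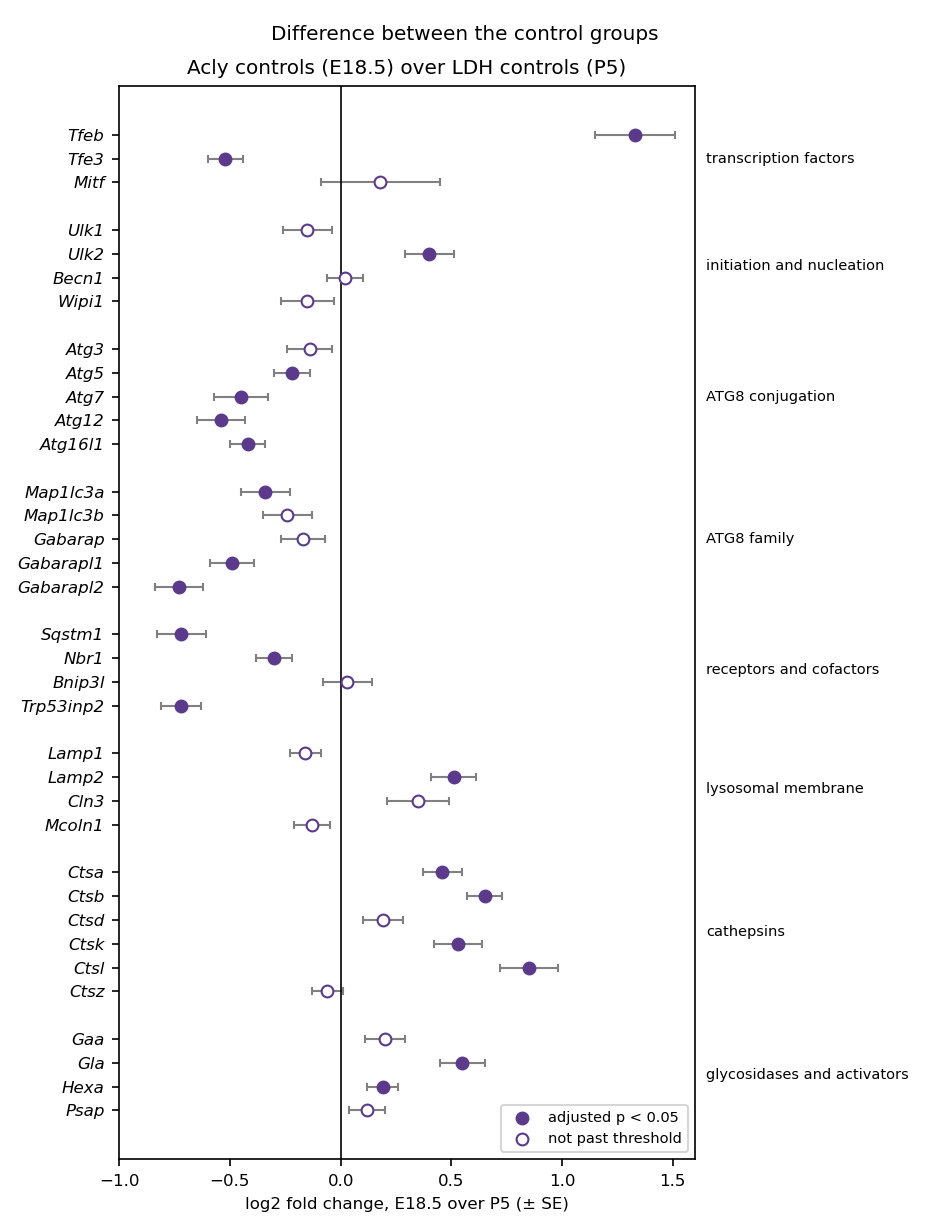
Log2 difference of each of the 35 genes between Acly controls at E18.5 and LDH controls at P5 (horizontal axis, ± SE from edgeR, 3 samples each), grouped by role; filled points passed adjusted p under 0.05. The conjugation and ATG8 family genes all lie below 0 with TMM scaling (Atg3 at 0.03 and Gabarap at 0.00 with total counts), and 5 of 6 cathepsins lie above 0.

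Of the cathepsins 4 were higher at E18.5. Ctsl, a cysteine protease of broad use, was at 254, 258 and 238 CPM in Acly controls and 146, 132 and 138 CPM in LDH controls, with no overlap (0.85, SE 0.13). Ctsb was at 844, 778 and 735 CPM against 517, 460 and 520 CPM, also apart (0.65, SE 0.08). Ctsk (0.53) and Ctsa (0.46) passed too, as did Gla (0.55), Lamp2 (0.51) and Hexa (0.19). The call of Hexa was lost on leaving out any 1 of the 6 control samples (adjusted p 0.0542 to 0.306 in edgeR). Ctsb, Ctsa and Hexa overlap other genes, so their counts are uncertain. The osteoclast markers summed to 52.1 to 79.9 CPM in Acly controls and 8.8 to 14.8 CPM in LDH controls, the macrophage and white blood cell markers to 164 to 189 CPM against 104 to 162 CPM with 8 of 11 apart and higher and 2 lower, and the fibroblast markers to 3043 to 3437 CPM against 451 to 875 CPM. Chondrocyte markers summed to 7517 to 8164 CPM against 10344 to 11930 CPM, although 4 of the 6 were called higher and 1 lower by edgeR. All 6 skeletal muscle, all 4 endothelial and all 5 red blood cell markers were apart and higher at E18.5, and 4 of 4 fat cell and 3 of 4 osteoblast markers tested were called higher. The part of these cells in the level of the lysosomal genes was not tested.

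The effects of members with and without CACGTG in their promoter window were set side by side. In the LDH knockout the median log2 fold change was 0.07 for the 11 with the motif and -0.08 for the 18 without it, and in the Acly knockout 0.12 and 0.02. Between control groups the medians were 0.19 and -0.15. These are descriptions with no test, and most of the 11 are lysosomal members.

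Beyond the 35 genes, 190 further genes of the same pathways were counted, 188 of which were tested in the LDH comparison and 189 in the Acly comparison. In the LDH knockout 0 rose and 1 fell by edgeR, beside 1.43% of all genes higher and 1.07% lower. DESeq2 called 2 higher and 6 lower, beside 6.67% of all genes in either direction. At an unadjusted p under 0.05 there were 38 (20.2%), beside 19.6% of all genes. Hyal1, a hyaluronidase, fell from 37.1 ± 2.52 to 25.6 ± 2.25 CPM (-0.53, adjusted p 0.0226 in edgeR). It overlaps Naa80 and Hyal3, so its counts are uncertain. Against the 1 low-Y control the value for Hyal1 was -0.57 with an adjusted p of 0.193 in edgeR. Its call was lost without control replicate 1 or 3 or knockout replicate 1 or 2 (adjusted p 0.0668 to 0.106 in edgeR). Of the other lists, Atg13 of the initiation complex was nearest to the threshold (-0.40, adjusted p 0.0513 in edgeR), then the cholesterol exporter Npc1 (-0.33), Nagpa of enzyme sorting (0.45), the mTORC1 activator Rheb (-0.27), the receptor Calcoco1 (-0.26), the proton pump subunit Atp6v1b2 (-0.25) and Atg16l2 of conjugation (0.36), at adjusted p values of 0.0613 to 0.204. Values were above 0 for 3 of 20 proton pump subunits and below 0 for 17 (median -0.11). They were above 0 for 35 of 44 lysosomal enzymes (median 0.09) and 6 of 23 lysosomal membrane proteins (median -0.10). Of all genes 51% were above 0. With the Y-linked covariate 17 pump subunits were still below 0 (median -0.23), and 21 enzymes (median -0.01) and 11 membrane proteins (median -0.01) were above 0.

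In the Acly knockout none of the 189 tested genes of these lists passed by edgeR, beside 0.136% of all genes. At an unadjusted p under 0.05 there were 24 (12.7%), beside 15.8% of all genes. DESeq2 called 4 of the 189, Bnip3, Cd68, Retreg1 and Rragd, beside 1.78% of all genes. The receptor list had its lowest p in Retreg1, a receptor for the endoplasmic reticulum, at 4.24, 5.01 and 4.11 CPM against 7.30, 8.28 and 9.25 CPM. Those groups were apart, at -0.89 (SE 0.17) with an adjusted p of 0.114 in edgeR. Of the 16 receptors 3 were above 0 and 13 below, where 49.7% of all genes were above 0. Above 0 were also 14 of 20 proton pump subunits (median 0.07), 30 of 44 lysosomal enzymes (0.05) and 10 of 24 lysosomal membrane proteins (-0.03). Bnip3, the close relative of Bnip3l, was named after its values were seen, and was at 40.7, 39.4 and 46.1 CPM against 50.5, 71.7 and 84.1 CPM (-0.71, SE 0.17, adjusted p 0.192 in edgeR). In the LDH knockout Bnip3 was at 0.27 and Bnip3l at -0.18, both overlapping between groups. The lowest p in the other lists belonged to Cd68 (0.40), the nutrient-sensing Rragd (-0.54), Rb1cc1 of the initiation complex (-0.55), the enzyme Man2b1 (0.39), the proton pump subunit Atp6v0a1 (0.36), Atg16l2 (0.35) and the sorting gene Ap1m1 (0.27), at adjusted p values of 0.192 to 0.315 in edgeR.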

How the data were processed

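RNA from 12 samples of cultured rib chondrocytes was lysed in Trizol, selected for polyadenylated molecules and sequenced at BGI, per the labels' protocols. The authors deposited 1 table of 17922 genes. Alignment used HISAT2 2.0.4 and the build mm9, per the submitters' processing notes; the counting program, the annotation and the use of strand are not given in the sources used here. Per the file headers the table holds a read count for each gene and sample, of which 7.32% to 8.16% per sample are not whole, so the deposited values were treated like expected counts. The FPKM values (scaled by the authors to transcript length and library total, per the file headers) served for an alternative test. The TPM values, deposited by the authors on a scale that sums to the same total in each sample, were used to compare levels between genes. The 12 columns of averages were not used.

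Rounded expected counts entered edgeR 4.0.16 (R 4.3.3, TMM scaling, filterByExpr, two-sided quasi-likelihood F test, Benjamini-Hochberg adjustment over all tested genes, threshold 0.05), in the 6 samples of each set, and in all 12 samples for the control groups and the difference of effects. CPM are TMM-scaled within the samples of each fit. The scripts were tested on simulated data. Groups came from the titles. Values per sample are given for members that passed and for the 6 with the lowest p in each knockout comparison, and, for control groups, for those with the largest differences. Of each pathway list the genes that passed are named, or the 1 with the lowest p. The 35 genes, the pathway lists and the cell type markers were chosen with earlier results of these data known. Alternatives were DESeq2 1.42.0, its size factors, total counts, no filter, a mean of at least 1 CPM, limma 3.58.1 on log2(FPKM + 1) and log2(FPKM + 0.1), the replicate number, the Y-linked signal (added as a covariate, or by keeping samples under 5 CPM), a fit of all 12 samples, and each sample left out. Of the 35 genes 8 overlap another gene, and their counts are uncertain. No mm9 genome was used here, so no coordinates of the counted genes are given; promoter windows and their coordinates are from RefSeq, GRCm38.p6. Floors cover counting error only, since no molecular identifiers are named. Xist was not analysed here. From the pathway lists 1 gene is not reported here and is left out of their counts.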

Additional observations from a re-analysis of the deposited data

Results flagged for a closer look

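By the edgeR test of the LDH effect against the Acly effect in all 12 samples, 2 genes named in the text differed. Both were targeted genes, Ldha by -3.18 on the log2 scale (adjusted p 5.52e-08) and Acly by 1.25 (adjusted p 0.0411). The Acly difference had an adjusted p of 0.218 with the Y-linked signal as a covariate and 0.126 with the replicate block, both in edgeR. Its call was also lost on leaving out any 1 control sample of either set, LDH knockout replicate 1 or LDH knockout replicate 2 (adjusted p 0.0748 to 0.135 in edgeR). Age and the deleted gene coincide in these differences. Groups of 3 are too small for a check of single outlying samples.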

How the results depend on the processing

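Whether same-numbered samples are paired cannot be settled with 3 samples per group. The deviations of same-numbered knockout and control from their group means correlated at r = 0.0479, -0.13 and -0.0184 in the LDH set. In the Acly set they correlated at 0.0204, -0.187 and -0.194. Knockout replicate 1 of each set was most like control replicate 1, and the others were most like a control of another number. With the replicate block the LDH knockout still had 2 members called, Trp53inp2 and Ctsk, while Gabarapl1 had an adjusted p of 0.0878 in edgeR, and the Acly knockout had 0. Over all genes the block gave 8 calls for Acly in place of 19 and 5 for the difference of effects in place of 23. No paired analysis was possible for the control groups because they come from unrelated litters. In the LDH comparison 0 members were called with the Y-linked covariate (all genes 3) and 0 with the low-Y samples only (all genes 15), 1 in the fit of all 12 samples and 1 at a mean of at least 1 CPM, and DESeq2 called 888 genes in place of 332. In the low-Y fit the lone control is assumed to vary like the other samples. In the Acly comparison DESeq2 called 1 member and 249 genes, and all-gene calls were 6 with the covariate, 31 in the fit of 12 samples, 32 without a filter and 11 with total counts, 3 of these higher. For the difference of effects DESeq2 called 217 genes and the covariate 6. Leaving out 1 sample gave 0 to 2 LDH members and 95 to 1068 genes (the latter without LDH knockout replicate 3), 0 to 1 Acly members and 0 to 132 genes (132 without knockout replicate 2), 0 members and 5 to 143 genes for the difference (143 without LDH knockout replicate 3), and 17 to 21 members and 6705 to 7127 genes between control groups. The cause of these shifts was not tested. No called value of a named gene changed sign. Of the alternatives for named genes, 127 of 153 in the LDH, 103 of 112 in the Acly, 30 of 42 in the difference and 254 of 280 in the control comparison stayed on the same side of the threshold. These tallies include targeted genes and genes not called in the main fit. For the 2 members called in the LDH knockout, 12 of 17 alternatives kept the call of Trp53inp2 and 6 of 17 that of Gabarapl1.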
